A study of Mus musculus with 6 samples.

Results

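A set of 10 neighbouring genes that encode F-box proteins with WD40 repeats, Fbxw13, Fbxw14, Fbxw15, Fbxw18, Fbxw19, Fbxw20, Fbxw21, Fbxw22, Fbxw24 and Fbxw28, were followed in ribosome profiling libraries of mouse oocytes. They were taken by name from the footprint table, where they are 10 of 22416 genes. Ribo-lite, a low-input form of ribosome profiling, sequences the mRNA fragments that ribosomes protect from nuclease, so its values report ribosomes on coding sequence and not protein. Oocytes of wild-type C57BL/6 females aged 4 weeks were collected 44 h after an injection of 5 IU PMSG, a gonadotropin that drives follicle growth, and each library was made from 500 oocytes. WT_FGO held fully grown oocytes at the germinal vesicle (GV) stage, before meiosis resumes. WT_MII held oocytes at metaphase II (MII), the stage at which a mature oocyte arrests. The study's methods describe collection at the GV stage followed by culture, so the MII oocytes are taken here to have matured in culture. The part of culture in the differences from WT_FGO was not tested. By the study's methods, control oocytes at the GV and the MII stage alike were exposed to the solvent DMSO. Treat_MII held MII oocytes that the labels call treated, and the study's methods name the agent as BYBX, a small molecule that binds RNA G-quadruplexes (folded G-rich RNA). Every group had 2 libraries. The labels do not say whether the libraries of a group came from separate animals, so the p-values measure the spread between these libraries only.

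F-box proteins are the exchangeable part of SCF ubiquitin ligases. The F-box binds the adaptor SKP1, which docks on the scaffold CUL1 and its RING partner RBX1, while a second domain, here the WD40 repeats, can hold the protein that is to be ubiquitinated. The ubiquitin chain usually marks that protein for the proteasome, and SCF ligases with other F-box proteins act in the release from metaphase II arrest. The Fbxw genes described here belong to a family that has multiplied in rodents, and several of them are known from oocytes.

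The 10 genes lie on the minus strand of mouse chromosome 9 in a run of 14 coding Fbxw genes that spans 651.224 kb (chr9:109139447-109790670, GRCm38, GENCODE annotation). From the low to the high coordinate the members follow in the order Fbxw21, Fbxw13, Fbxw20, Fbxw14, Fbxw28, Fbxw22, Fbxw19, Fbxw15, Fbxw24 and Fbxw18. Fbxw16 and Fbxw25 are interspersed among them, Fbxw26 and Fbxw27 follow at the high-coordinate end, and these 4 are not members. The coding sequences are 1401 to 1410 bases long and encode 466 to 469 residues. Over the 45 pairs of members, the coding sequences were between 79.1% and 99.1% identical, with a median of 83.2%. Fbxw14 and Fbxw28, which sit side by side, were the closest pair, with 13 differing positions. Fbxw22, the next gene along, shared 92.6% with Fbxw14 and 92.2% with Fbxw28, whereas no other pair of members exceeded the 88.3% between Fbxw22 and Fbxw19. The heat map of pairwise identity shows this block of 3 genes.

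**Figure D1:**
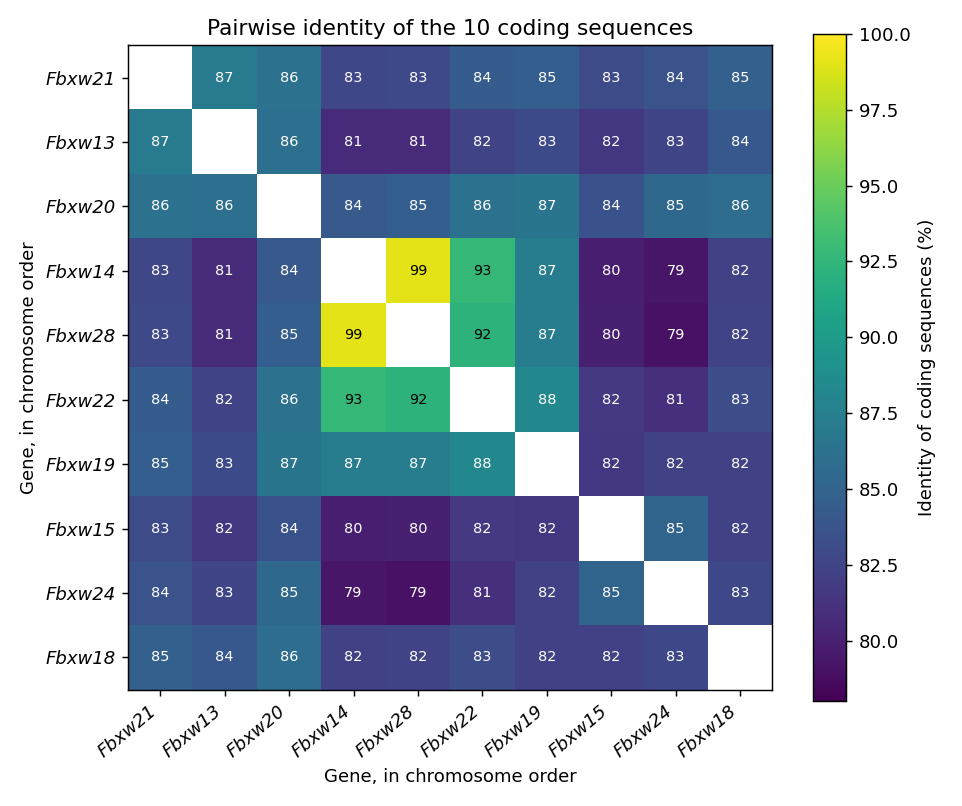
Identity of the coding sequences for every pair of the 10 members, in percent, with both axes in chromosome order. Fbxw14, Fbxw28 and Fbxw22 form the brightest block, between 92.2% and 99.1%, and the other pairs lie at 88.3% or below.

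A stretch of 60 coding bases in exon 8 is printed for all members, because it is where Fbxw14, Fbxw28 and Fbxw22 were set apart most densely from the other 7 members. Capitals mark the 7 positions at which these 3 genes share a base that none of the other 7 carries. The whole alignment held 35 such positions, where a gap in another member also counted as not carrying the base. Of its columns, 1396 had no gap in any member. The 3 genes were singled out after their footprint values had been seen. The sequences are from GRCm38, given 5′ to 3′ on the minus strand.
Fbxw14 (chr9:109274561-109274620): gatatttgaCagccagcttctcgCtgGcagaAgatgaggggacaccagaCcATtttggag
Fbxw28 (chr9:109326652-109326711): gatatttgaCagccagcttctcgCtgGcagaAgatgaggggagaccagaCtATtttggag
Fbxw22 (chr9:109382181-109382240): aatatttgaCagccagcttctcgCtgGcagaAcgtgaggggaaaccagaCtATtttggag
Fbxw19 (chr9:109482089-109482148): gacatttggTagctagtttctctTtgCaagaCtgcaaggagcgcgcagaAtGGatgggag
Fbxw20 (chr9:109221788-109221847): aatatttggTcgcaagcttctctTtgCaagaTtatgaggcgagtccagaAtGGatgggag
Fbxw24 (chr9:109605480-109605539): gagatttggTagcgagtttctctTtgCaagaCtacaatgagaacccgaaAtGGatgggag
Fbxw15 (chr9:109555680-109555739): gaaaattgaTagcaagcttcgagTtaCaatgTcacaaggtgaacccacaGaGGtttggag
Fbxw18 (chr9:109688857-109688916): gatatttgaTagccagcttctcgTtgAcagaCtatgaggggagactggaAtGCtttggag
Fbxw13 (chr9:109181518-109181577): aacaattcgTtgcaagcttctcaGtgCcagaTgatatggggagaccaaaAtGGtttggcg
Fbxw21 (chr9:109143814-109143873): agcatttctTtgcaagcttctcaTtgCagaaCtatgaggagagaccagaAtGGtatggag
By the definition of a capital, the lines of Fbxw14, Fbxw28 and Fbxw22 read alike at every one.

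In fully grown oocytes the members carried many footprints, and their levels spanned more than an order of magnitude. Fbxw24 was the highest, with 4922 and 3688 FPKM in the 2 libraries (mean 4305 ± 873 FPKM, SD, n = 2), which rested on 649 and 553 reads. FPKM is a count of fragments scaled to coding length and to the size of the library, so levels can be set side by side between genes. Fbxw18 followed with 2088 and 2001 FPKM. Fbxw21 had 1826 and 1440 FPKM and Fbxw19 had 1335 and 1447 FPKM, and these neighbours in the order overlapped. Fbxw15 came next with 1191 and 1007 FPKM, and Fbxw28 with 777 and 618 FPKM. The lower end held Fbxw14 with 609 and 504 FPKM, Fbxw22 with 417 and 574 FPKM, Fbxw13 with 333 and 299 FPKM, and Fbxw20 with 302 and 252 FPKM. Fbxw14 overlapped Fbxw22, and Fbxw13 overlapped Fbxw20. The libraries of all other neighbours in the order did not overlap, but some gaps, such as that between Fbxw28 and Fbxw14, were smaller than the spread within a gene.

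**Figure D2:**
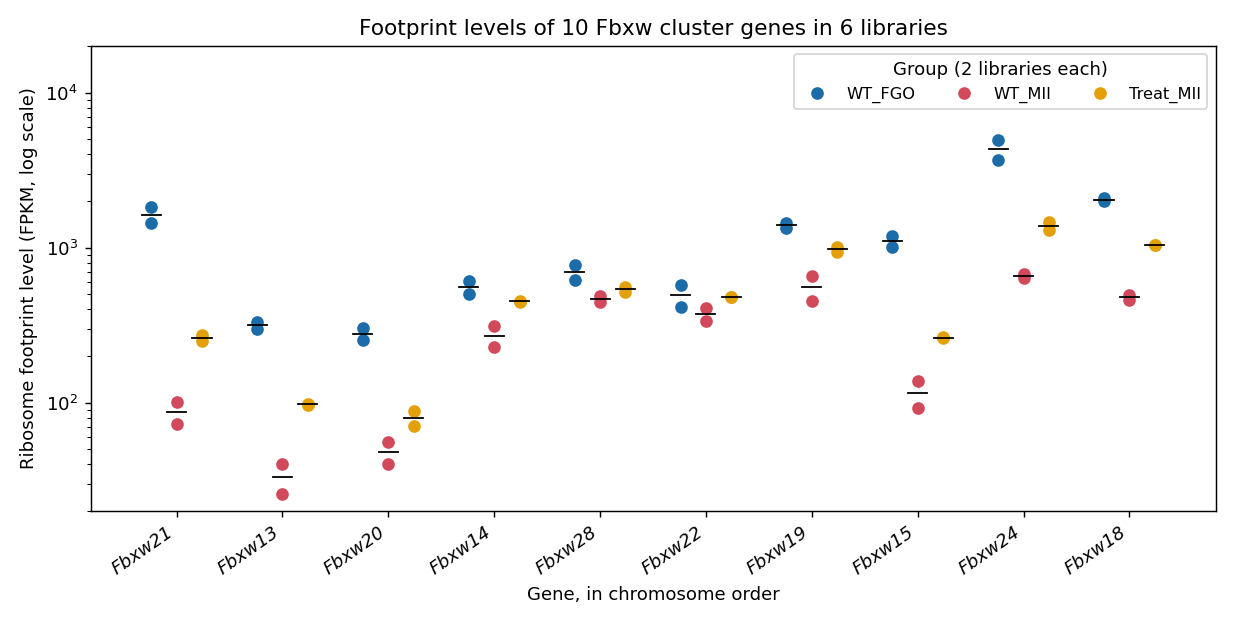
Footprint level in FPKM on a log axis for the 10 members, in chromosome order. Each point is 1 library (2 per group) and each bar is a group mean. WT_FGO lies highest for all members but Fbxw22, where 1 of its libraries falls below both treated ones, and the WT_MII points lie lowest for all 10.

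Taken as a group, the 10 genes held 2.07% (95% Wilson interval 1.98 to 2.17%) and 1.77% (1.69 to 1.86%) of the recovered reads of the WT_FGO libraries. In WT_MII the share was 0.454% (0.422 to 0.489%) and 0.478% (0.450 to 0.507%). In Treat_MII it was 0.825% (0.794 to 0.857%) and 0.853% (0.818 to 0.889%). The mean share was thus 4.13 times higher in WT_FGO than in WT_MII and 1.80 times higher in Treat_MII than in WT_MII, and the 3 groups did not overlap. The intervals cover counting error only, since copies made by PCR are not independent molecules. Because values are relative to each library's total, fewer mRNAs, fewer ribosomes per mRNA a larger total of other footprints and, in a pool, fewer intact oocytes cannot be told apart.

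The comparison of WT_MII with WT_FGO asks how footprints on these genes changed over meiotic maturation. Of the 10 members, 7 were called lower in WT_MII and none higher by limma at an adjusted p under 0.05, beside 3.09% of the 15127 tested genes that were called lower. The fall of Fbxw21 was the largest. It went from 1826 and 1440 FPKM to 73.3 and 102 FPKM, a log2 change of -4.21 ± 0.30 (SE), with a limma adjusted p of 0.00207. Fbxw15 went from 1191 and 1007 to 139 and 92.9 FPKM, a log2 change of -3.26 ± 0.31 (limma adjusted p = 0.00457). Fbxw13 had 333 and 299 FPKM before and 25.9 and 40.1 FPKM after maturation, where it rested on 6 and 13 reads (log2 change -3.25 ± 0.39, limma adjusted p = 0.00938). In all 3 genes the groups were far apart and did not overlap.

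The most abundant member in fully grown oocytes, Fbxw24, was at 637 and 675 FPKM in WT_MII, a log2 change of -2.70 ± 0.21 (limma adjusted p = 0.00283). Fbxw18 was at 457 and 499 FPKM, a log2 change of -2.10 ± 0.19 (limma adjusted p = 0.00422). Fbxw20 was at 56.1 and 40.1 FPKM, with 13 reads in each library, and its log2 change was -2.52 ± 0.39 (limma adjusted p = 0.020). Fbxw19 fell least among the genes called, to 455 and 660 FPKM (log2 change -1.34 ± 0.25, limma adjusted p = 0.0357). The call of Fbxw19 was lost with median centring and without either WT_FGO library or the first WT_MII library, and that of Fbxw20 was lost without the second WT_MII library. The calls did not hold in fits without either Treat_MII library or with the 2 compared groups alone, and the reason was not tested. With the 2 compared groups alone, 0 of all genes were called higher and 0 lower. Without a mean-variance trend only Fbxw21 stayed called.

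Fbxw14, Fbxw28 and Fbxw22, the 3 genes of the printed block, did not pass the test. Fbxw14 was at 311 and 228 FPKM in WT_MII, against 609 and 504 FPKM in WT_FGO, a log2 change of -1.05 with a 95% interval from -1.74 to -0.37 (limma adjusted p = 0.0868). Other limma fits did call Fbxw14 lower. Its adjusted p was 0.0104 with precision weights from the recovered reads, 0.0264 on genes with at least 60 reads, and 0.00688 with both. In that order, these fits called 1577 of 14544, 509 of 2706 and 623 of 2706 genes lower. A call was thus more common there than in the main fit, with 468 of 15127. Fbxw28 was at 444 and 485 FPKM, against 777 and 618 FPKM (log2 change -0.58, interval -1.17 to 0.02, limma adjusted p = 0.233). Fbxw22 was at 408 and 338 FPKM, against 417 and 574 FPKM (log2 change -0.40, interval -1.08 to 0.28, limma adjusted p = 0.490). In each of them both WT_MII libraries nonetheless lay below both WT_FGO libraries, by a narrow margin in Fbxw22. No test was made of their difference from the other members, because they were grouped after their values were known.

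With 10 of 10 members, the separation of all WT_MII from all WT_FGO values was read against 25.8% of all tested genes and 34.4% of the 2706 genes with at least 60 recovered reads. By the ratio of group means, without a test, 8 members were more than 2-fold lower, beside 41.8% of the tested genes. The median log2 change of the members was -2.31. It was -0.44 over all tested genes, many of which rest on a few reads, and 0.23 over the genes with at least 60 reads, of which 8.98% lay below the members' median. Since the median of all genes was itself off 0, the libraries were also centred on their median: 6 members were then called lower, the split over all genes moved from 555 higher and 468 lower to 758 and 305, and the change of Fbxw22 turned to 0.066 (limma adjusted p = 0.934).

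**Figure D3:**
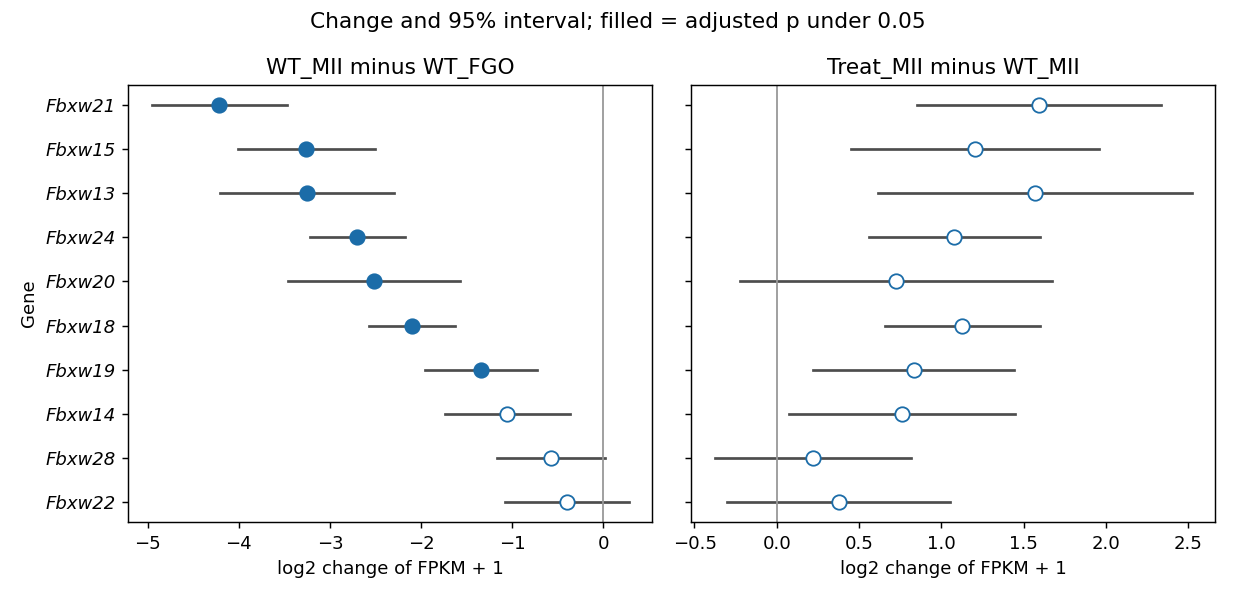
Log2 change of FPKM + 1 for each member with its 95% interval, for WT_MII minus WT_FGO (left) and Treat_MII minus WT_MII (right), ordered by the left panel. Filled points passed an adjusted p under 0.05: 7 on the left and 0 on the right, where all 10 estimates lie above 0.

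Because the members fell by different amounts, the make-up of their summed level differed between the stages. The sum over the 10 genes was 12815 ± 1393 FPKM (SD, n = 2) in WT_FGO, 3083 ± 109 FPKM in WT_MII and 5584 ± 134 FPKM in Treat_MII. Fbxw24 made up 35.7% and 31.2% of it in the WT_FGO libraries, 21.2% and 21.4% in WT_MII, and 23.8% and 25.9% in Treat_MII. Fbxw21 went the same way, from 13.2% and 12.2% to 2.44% and 3.22%, and was at 5.01% and 4.41% in the treated libraries. Fbxw22 took the opposite course, with 3.02% and 4.85% in WT_FGO, 13.6% and 10.7% in WT_MII, and 8.81% and 8.46% in Treat_MII. Fbxw28 was at 5.63% and 5.22%, then 14.8% and 15.4%, and 10.2% and 9.16% in Treat_MII. For each of these 4 genes the treated libraries lay between those of the other groups without overlap, as they did for Fbxw13 and Fbxw15. This did not hold for the other members. The treated shares of Fbxw14, Fbxw19 and Fbxw20 lay between the 2 WT_MII values. Fbxw18 had its highest shares in Treat_MII (19.0% and 18.4%).

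**Figure D4:**
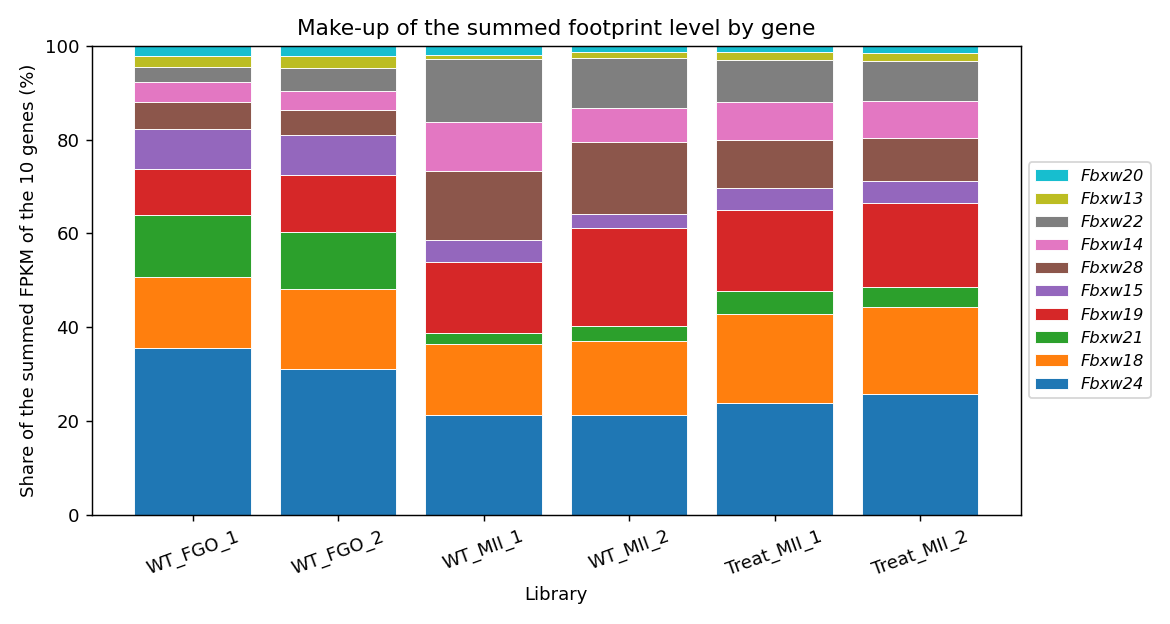
Share of each member in the summed FPKM of the 10 genes, in percent, for each of the 6 libraries, with bars stacked to 100%. Fbxw24 (bottom) takes 31.2% to 35.7% in WT_FGO and 21.2% to 21.4% in WT_MII, while Fbxw22 and Fbxw28 widen from WT_FGO to WT_MII.

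Ratios within a library do not depend on its total. Fbxw24 exceeded Fbxw22 by 11.8 and 6.43 times in WT_FGO, 1.56 and 2.00 times in WT_MII, and 2.71 and 3.06 times in Treat_MII. Fbxw21 was 4.38 and 2.51 times Fbxw22 in WT_FGO but 0.180 and 0.301 times Fbxw22 in WT_MII. It was at 0.569 and 0.522 times Fbxw22 in the treated libraries. Before maturation Fbxw28 was 1.86 and 1.08 times Fbxw22, and the ratio was 1.09 and 1.44 in the control and 1.16 and 1.08 in the treated MII libraries, so the 3 groups overlapped for these related genes.

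The order of levels in MII oocytes followed from these changes. In WT_MII the highest means were those of Fbxw24 (656 FPKM), Fbxw19 (558 FPKM), Fbxw18 (478 FPKM) and Fbxw28 (465 FPKM), and each of them overlapped the next. Fbxw22 (373 FPKM) and Fbxw14 (270 FPKM) stood below, followed by the overlapping pair of Fbxw15 (116 FPKM) and Fbxw21 (87.5 FPKM) and by that of Fbxw20 (48.1 FPKM) and Fbxw13 (33.0 FPKM). Fbxw21, at rank 3 in WT_FGO, was thus at rank 8. In Treat_MII the order ran Fbxw24, Fbxw18, Fbxw19, Fbxw28, Fbxw22, Fbxw14, Fbxw15, Fbxw21, Fbxw13 and Fbxw20, and Fbxw15 and Fbxw21 were the only neighbours that overlapped.

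The comparison of Treat_MII with WT_MII asks how the ligand during maturation changed the footprints. No member was called by limma at an adjusted p under 0.05, and neither was any other gene (0% of 15127). At an unadjusted p under 0.05, limma gave 576 genes higher (3.81%) and 306 lower, and 7 of the 10 members were among the higher ones. All 10 members had both treated libraries above both control libraries, beside 16.2% of the tested genes and 25% of those with at least 60 reads. The median log2 difference of the members was 0.95, against 0.00 over all tested genes and 0.05 over those with at least 60 reads, of which 9.31% lay above the members' median. By the ratio of group means, without a test, 5 members were more than 2-fold higher, beside 19.9% of the tested genes.

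Fbxw21 had 275 and 251 FPKM in the treated libraries against 73.3 and 102 FPKM in the controls, a log2 difference of 1.59 (95% interval 0.85 to 2.33, limma adjusted p = 0.628). Fbxw13 had 96.8 and 98.3 FPKM against 25.9 and 40.1 FPKM (log2 difference 1.57, limma adjusted p = 0.709). Fbxw15 had 261 and 265 FPKM against 139 and 92.9 FPKM (1.20, limma adjusted p = 0.713). These were also the 3 members with the largest fall at maturation, but both comparisons use the same WT_MII libraries, so a low value there enters both. Fbxw18, with 1040 and 1044 FPKM against 457 and 499 FPKM, had a log2 difference of 1.13 (interval 0.66 to 1.60, limma adjusted p = 0.494). Fbxw24, with 1308 and 1469 FPKM against 637 and 675 FPKM, had one of 1.08 (interval 0.56 to 1.60, limma adjusted p = 0.641). Fbxw19 was at 944 and 1010 FPKM against 455 and 660 FPKM (0.83, limma adjusted p = 0.797).

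For the other members the groups stood closer. Fbxw14 was at 448 and 454 FPKM against 311 and 228 FPKM, and Fbxw20 was at 70.9 and 87.9 FPKM against 56.1 and 40.1 FPKM. Their log2 differences were 0.76 (limma adjusted p = 0.836) and 0.72 (limma adjusted p = 0.931). Fbxw22, with 484 and 480 FPKM against 408 and 338 FPKM, differed by 0.38 (interval -0.30 to 1.05). Fbxw28, with 561 and 520.0 FPKM against 444 and 485 FPKM, differed by 0.22 (interval -0.38 to 0.81). Both intervals include 0.

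The count of members called depended on the fit. With precision weights from the recovered reads, limma called 4 members higher (Fbxw24, Fbxw18, Fbxw21 and Fbxw19, adjusted p from 2.67e-05 to 0.0292), beside 0.447% of 14544 genes. Restricted to genes with at least 60 reads, a choice made after the data were seen, the weighted limma fit called 1 member, Fbxw18 (adjusted p = 0.0469), beside 0.296% of those genes.

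Set against fully grown oocytes, the treated oocytes had lower levels of most members. Of the 10, 3 were called lower, beside 1% of the tested genes: Fbxw21 (log2 change -2.62, limma adjusted p = 0.0103), Fbxw24 (-1.62, limma adjusted p = 0.0156) and Fbxw15 (-2.05, limma adjusted p = 0.0244). None of the 3 calls remained without either Treat_MII or either WT_MII library, although the WT_MII libraries enter this comparison only through the estimate of the spread. Without either WT_FGO library Fbxw15 lost its call (limma adjusted p = 0.0756 and 0.0602 without the first and the second) and Fbxw18 gained one (0.0495 and 0.0453), so the count stayed at 3. Fbxw18 (-0.97, limma adjusted p = 0.0548), Fbxw20 (-1.79, limma adjusted p = 0.0691) and Fbxw13 (-1.68, limma adjusted p = 0.0816) missed the threshold. Fbxw19, Fbxw28, Fbxw14 and Fbxw22 had log2 changes of -0.51, -0.36, -0.30 and -0.02. The median over the members was -1.29, against -0.53 over all tested genes and 0.13 over those with at least 60 reads, of which 21.5% lay below it.

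Both treated libraries lay below both WT_FGO libraries for 9 members, beside 28.9% of all tested genes and 38.4% of those with at least 60 reads. The exception was Fbxw22, whose WT_FGO libraries enclosed the treated ones. The same 9 members had the full order of WT_FGO above Treat_MII above WT_MII with no overlap, a pattern that 10.9% of the genes with at least 60 reads shared. The 3 comparisons share libraries in pairs, so these counts are not independent of each other.

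Paralogs as similar as these raise the question of which gene a footprint is given to. Of the words of 28 bases, about the length of a footprint, in the coding sequence of Fbxw14, 85.4% also occur in a transcript of another gene, and in Fbxw28 82.2% do. For Fbxw22 the share was 35.2%, and for the other 7 members it ran from 18.1% in Fbxw18 to 32.3% in Fbxw20. How reads that fit several genes were treated when the table was made is not given in the sources used here. If shared reads had been dropped, the level would have to be divided by the unshared part alone. On that scale Fbxw28 and Fbxw14 came to 4468 and 4048 FPKM in WT_FGO, against 697 and 557 FPKM as deposited. They ranked just below Fbxw24 (5636 FPKM). Their reads were recovered over the union of annotated coding bases, 1570 bases for Fbxw28 and 1462 for Fbxw14. Their unshared words, 245 and 201, were counted on a coding sequence of 1401 bases only. Any reads on the additional bases would make these levels too high, so the ranks of both genes on this scale are uncertain.

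In WT_MII, on the scale of unshared words, Fbxw28 (2978 FPKM) and Fbxw14 (1960 FPKM) ranked above Fbxw24 (859 FPKM). In Treat_MII they also ranked first, with 3465 and 3281 FPKM against 1818 FPKM for Fbxw24. The mismatch of lengths for Fbxw28 and Fbxw14 applies to these ranks as well. Of the 45 pairs of members, 36 kept their WT_FGO order. Division by another length leaves every fold change between groups as it was, for a given count of reads. Fbxw14 and Fbxw28 have 81.3% of their words in common. If reads that fit both had been counted for each or placed at random, their changes would be blends and not separate observations. The levels of Fbxw14 and Fbxw28 against other members are therefore uncertain, and so are the split between them and the separateness of their changes. As deposited, Fbxw14 stood at 0.784 and 0.816 times Fbxw28 in WT_FGO, at 0.700 and 0.470 times in the control MII libraries, and at 0.798 and 0.873 times after treatment.

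**Figure D5:**
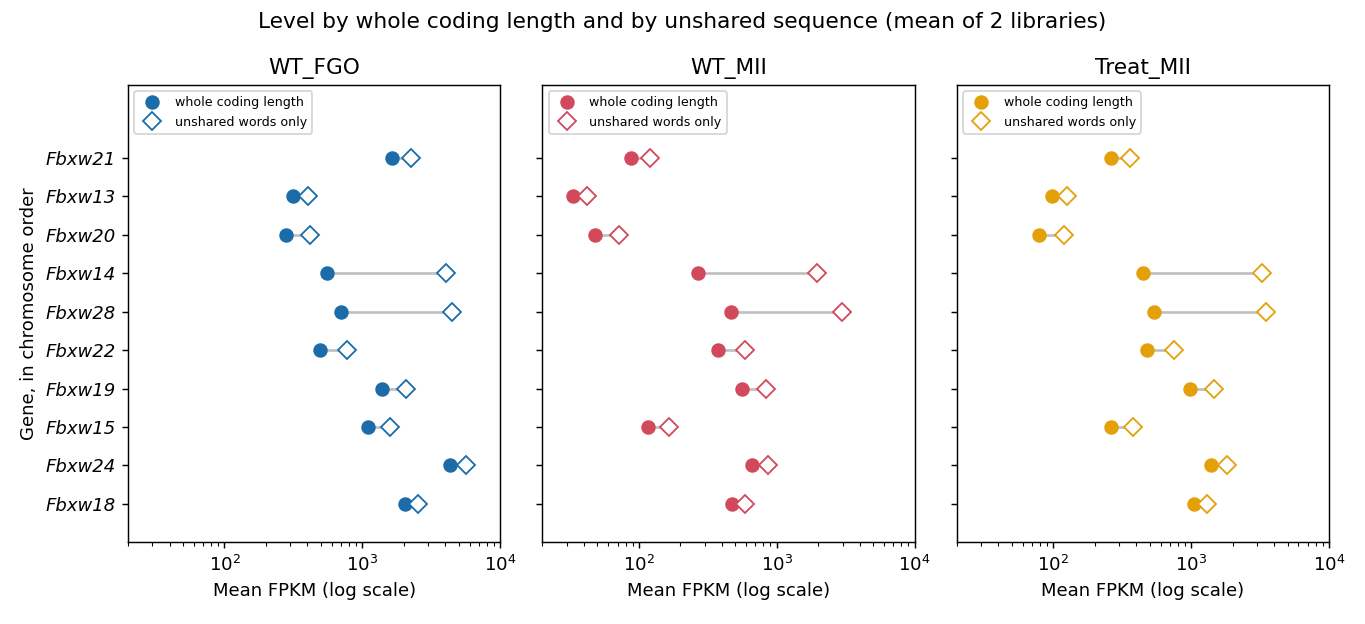
Mean level of each member in the 3 groups (n = 2 libraries), on a log axis, per whole coding length (filled circles) and per length of coding words found in no other gene (open diamonds). The 2 scales lie far apart for Fbxw14 and Fbxw28 and close together for the other 8 members.

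The 4 coding genes of the run that are not members were all called lower at maturation as well. Fbxw16, located between Fbxw22 and Fbxw19, fell from 587 and 636 FPKM to 61.0 and 99.6 FPKM and stood at 202 and 206 FPKM in the treated libraries (maturation log2 change -2.95, limma adjusted p = 0.00852). Fbxw25, located between Fbxw24 and Fbxw18, had a maturation log2 change of -2.77 (limma adjusted p = 0.0284). Fbxw26 and Fbxw27, which were added after their values had been seen, had changes of -5.78 (limma adjusted p = 0.00181) and -3.05 (limma adjusted p = 0.0166). Fbxw26 went from 865 and 654 FPKM to 13.0 and 12.4 FPKM, or 3 and 4 reads, and stood at 130 and 101 FPKM in Treat_MII. Over all 14 coding genes of the run, the 3 without a maturation call in the unweighted fit over all tested genes were thus Fbxw14, Fbxw28 and Fbxw22. Fbxw14 was called lower with precision weights or on genes with at least 60 reads.

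The partners of an F-box protein did not move as 1 group. In a list of 20 SCF subunits and of enzymes that load or remove the ubiquitin-like activator NEDD8, 6 were called lower at maturation and 2 higher (median log2 change -1.07), none was called in the treatment comparison (median 0.66), and 1 was called lower and 2 higher in treated against fully grown oocytes (median -0.98). Skp1a, the adaptor that all F-box proteins bind, went from 20329 and 13083 FPKM to 1951 and 2186 FPKM (log2 change -2.98, limma adjusted p = 0.00250), and was at 4179 and 4394 FPKM in Treat_MII. It thus had the order of groups that 9 members had. Cul1, the scaffold, rose from 353 and 386 FPKM to 1225 and 1537 FPKM (log2 change 1.89, limma adjusted p = 0.00792) and was at 1592 and 1603 FPKM in Treat_MII.

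Rbx1, the RING subunit, ranged from 70.3 to 707 FPKM over all libraries with overlap between the groups (maturation log2 change -1.35, limma adjusted p = 0.490). Uba3, a subunit of the NEDD8-activating enzyme, was listed at 0 in both WT_FGO libraries and at 163 and 242 FPKM in WT_MII (limma adjusted p = 0.00193). Cops3 and Cops6, subunits of the COP9 signalosome that removes NEDD8 from cullins, fell, with log2 changes of -4.37 (limma adjusted p = 0.0113) and -4.40 (limma adjusted p = 0.0241).

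Most F-box genes elsewhere in the genome passed no threshold at maturation, which was also true of most tested genes. Of 66 such genes in the table, 60 were tested, 3 were called higher and 2 lower, and their median log2 change was -0.06. Over all 15127 tested genes, 555 were called higher and 468 lower. Those called higher were Fbxo33, from 12.1 and 16.0 to 121 and 146 FPKM, Fbxl6, from 39.6 and 17.4 to 185 and 143 FPKM, and Fbxo28, from 19.2 and 25.3 to 132 and 90.2 FPKM. Btrc, which encodes the F-box protein that recognises phosphorylated regulators such as EMI proteins and beta-catenin, was lower (80.4 and 190 to 17.2 and 14.4 FPKM), as was Fbxo36 (75.2 and 82.7 FPKM to 0 in both). None was called in the treatment comparison (median 0.11), and Fbxo33 was the single gene called, higher, in treated against fully grown oocytes (median -0.18). Only 15 of the 60 had at least 60 reads, so the depth limits what this list can show.

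Among the members, each gene's profile over the 6 libraries was compared with the mean of the other 9. The Pearson correlation of log2(FPKM + 1) was 0.995 for Fbxw24, 0.991 for Fbxw18, 0.991 for Fbxw21 and at least 0.896 for all but Fbxw22, for which it was 0.608. The points fall into 3 groups of 2 libraries, so these values describe the likeness of profiles and carry no test. Outside the run, the 5 named genes most like the mean profile of the members, out of 2656 with at least 60 reads, were Mtx2, Elobl, Tacc3, Ndufa9 and Padi6, with correlations from 0.996 to 0.998. Tacc3, which encodes a protein of the meiotic spindle, went from 1073 and 914 FPKM to 37.7 and 42.7 FPKM and was at 132 and 145 FPKM in Treat_MII. Padi6, an abundant oocyte protein needed for cytoplasmic lattices, went from 10477 and 8544 FPKM to 1687 and 1369 FPKM and was at 3324 and 3406 FPKM.

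The libraries were shallow and differed in depth along with the groups, with constants of 94309 and 107251 reads in WT_FGO, 164972 and 230907 in WT_MII, and 331304 and 275604 in Treat_MII, and the part of depth in the results was not tested. Of 14 oocyte markers, 13 or 14 were above 0 in every library, with summed levels of 39722 to 59295 FPKM in WT_FGO, 22010 to 26791 FPKM in WT_MII and 32620 to 33400 FPKM in Treat_MII. At maturation 8 of them were called lower, among them the zona pellucida genes Zp1, Zp2 and Zp3, and 2 higher, Oosp1 and Mos. The 14 granulosa and cumulus markers summed to 102 to 134 FPKM in 5 libraries and to 1387 FPKM in the second WT_FGO library, where 10 of them were above 0. None of the 11 tested was called, and Tnfaip6, a cumulus marker, was at 0 in all libraries. Without the second WT_FGO library the maturation changes of the members kept their direction.

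The transcripts of the members are compact. Their 3′ UTRs are 52 to 401 bases long with a median of 58 bases, while the median over 20244 annotated genes is 804 bases and 3.51% of genes have a 3′ UTR of 58 bases or fewer. The long ones belong to Fbxw14 (348 bases) and Fbxw22 (401 bases), and those of the other members are 52 to 62 bases. The canonical polyadenylation signal AATAAA begins 30 to 37 bases after the stop codon in all 10 members. Within the first 60 bases of the 3′ UTR it was found in 10 of 10 members and in 4.13% of 19699 genes (6.51% of 5713 genes whose transcript is no longer than the longest of a member). Those genes were not matched for 3′ UTR length. In a 3′ UTR of about 60 bases, a signal near the transcript end lies in this window by position. For most members the contrast thus restates the short 3′ UTR. The 30 bases around the signal are printed for a pair of members that fell at maturation and a pair that did not pass the test, 5′ to 3′ on the minus strand of GRCm38 with AATAAA in capitals.
Fbxw24 (chr9:109601120-109601149): ttcctcaatgatAATAAAggtctatttgca
Fbxw15 (chr9:109552610-109552639): ttcctcaaagatAATAAAggcctatttgca
Fbxw28 (chr9:109323239-109323268): ttactcaatgatAATAAAggtctatttcca
Fbxw22 (chr9:109378747-109378776): ttcctcaatgatAATAAAggtctatttgca
The 4 windows are nearly the same. Whether the 3′ end bears on the changes of the members was not tested. A cytoplasmic polyadenylation element, searched on the transcript strand as TTTTAT or TTTTAAT, was in the 3′ UTR of none of the members. It was in that of 55.1% of the 19699 genes and 25.3% of the 5713 with short transcripts, which were not matched for the length of the 3′ UTR. Within the first 60 bases of the 3′ UTR it was in 3.72% and 3.20% of these genes. At such shares, its absence from 10 members does not set them apart. TTTTAAT can share its last 3 letters with AATAAA, and these matches are letters and not measured sites.

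A G-quadruplex motif, taken as 4 stretches of 3 or more consecutive G, spaced by 1 to 7 bases and searched on the transcript strand, was in none of the 10 annotated member transcripts. It was in 16.9% of 21359 genes and in 6.80% of 7014 genes whose transcript is no longer than the longest member transcript. With stretches of 2 or more G, 3 members held a match, Fbxw13, Fbxw24 and Fbxw18, beside 91.2% of all genes and 79.2% of those with short transcripts. Of these 3 genes all were called lower at maturation, and so were 4 genes without a match. The absence of a match says only that these letters are not in the annotated transcript.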

How the data were processed

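Ribo-lite libraries of 3 groups with n = 2 each were analysed from 1 deposited table. The values were FPKM, computed by the authors for every library after mapping to mm10 (cutadapt 1.14, Bowtie2 2.2.2 and STAR 2.5.3a per the submitters' processing notes), and the counting program, the annotation and the treatment of reads that fit several genes are not given in the sources used here. No spike-in is stated. The table held 22442 rows, and 26 rows that repeated a gene's name were dropped. Multiplied by the union coding length (GENCODE M21), 21593 of 21937 genes came out as whole reads (within 0.02 reads) in every library, and 1 read in 1 kb was worth 3.02 to 10.6 FPKM.

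Genes averaging 1 FPKM or more over the libraries were tested on log2(FPKM + 1) with limma 3.58.1 (R 4.3.3, lmFit and eBayes with trend), with all 6 libraries in 1 fit, Benjamini-Hochberg adjustment over 15127 genes and a threshold of 0.05. Folds on this scale understate the change of low genes. Coding sequences were aligned with MAFFT 7.526, and a word counted as shared when a transcript of another gene held it. The members and lists were chosen with earlier results of these data known. Named were all members, other Fbxw genes among them, the core SCF subunits with up to 5 called genes of that list, up to 5 called F-box genes elsewhere, and the 5 genes most like the members' mean. Alternatives were another pseudocount, other filters, centring, quantile normalization, a replicate term, fewer groups, no trend, precision weights, a 2-fold rule and leaving out each library. RNA-seq and G-quadruplex mapping were not analysed here.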

Additional observations from a re-analysis of the deposited data

How the results depend on the processing

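At maturation 7 members were called lower, and this stayed between 6 and 8 under another pseudocount, other filters, both rescalings, precision weights, the 2-fold rule and, added after seeing the data, only genes with at least 60 reads. It was 1 without the variance trend and 0 with only the 2 groups compared, and ranged from 0 (without either Treat_MII library) to 6 (without any other library). For the treatment, the count of 0 became 4 with precision weights, 1 with those weights on genes with at least 60 reads and 5 by the untested 2-fold rule, and was 0 without any single library. For treated against fully grown oocytes, the count of 3 became 5 at a mean of at least 5 FPKM and by the 2-fold rule, 1 with median centring, 0 without the trend and with only the compared groups, 7 with precision weights, and 6 on genes with at least 60 reads with or without weights. It ranged from 0 (without any 1 MII library) to 3 (without either WT_FGO library, where Fbxw18 took the place of Fbxw15). For treated against fully grown oocytes, the main fit called 152 of 15127 genes lower. This was 232 at a mean of at least 5 FPKM and 65 with median centring. It was 1991 of 14544 genes with weights, 413 of the 2706 genes with at least 60 reads, and 686 of these with weights. Precision weights called more genes in all 3 comparisons, and the reason for the other moves was not tested. Over all genes, maturation calls went from 555 higher and 468 lower to 188 and 140 without the trend, 802 and 1577 with weights and 0 with the compared groups alone. On the 2706 genes with at least 60 reads they were 745 and 509, and 720 and 623 with weights.

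Median centring turned 3 small changes: Fbxw22 at maturation (to 0.066), and Fbxw14 (to 0.053) and Fbxw22 (to 0.33) in treated against fully grown oocytes. The last was -0.25 without the first and 0.21 without the second WT_FGO library. No treatment difference of a member changed sign. Replicate numbers did not pair the libraries (correlation of deviations 0.0342, 0.0176 and 0.0189 over 2706 genes). With the replicate block 7, 0 and 3 members were called in the 3 comparisons. Of the 45 pairs of members, 43 and 45 kept their WT_FGO order without the first and the second of its libraries.

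Depth limits the lowest members: Fbxw13 and Fbxw20 rest on 19 and 26 reads over both WT_MII libraries.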

Other observations

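The link between shared sequence and the deposited values was also counted over all annotated genes. Of 14442 genes with under 1% of their coding words of 28 bases in another gene, 13.0% were listed at 0 in all 6 libraries. The share was 31.3% of 3889 genes with 1 to 50% of their words shared, 61.2% of 2267 genes with 50 to 99% shared, and 87.7% of 758 genes with at least 99% shared. Fbxw14 and Fbxw28, both in the third class, were above 0 in every library. The classes were not matched for expression in oocytes, and what sets the share of genes at 0 was not tested.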
